A study of Homo sapiens with 4 samples.

Results

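Integrins and laminins are the receptors and the ligands with which epithelial cells hold on to a basement membrane, and their 38 genes were followed in OVCAR3 cells carrying a short hairpin RNA against the pseudogene transcript ANAPC1P2. OVCAR3 is an established line grown from a serous carcinoma of the ovary. The genes were chosen by symbol alone, as every row named for an integrin α chain (18 genes), an integrin β chain (8 genes) or a laminin chain (12 genes), out of 62696 gene rows. Per the labels, the knockdown group (KD, n = 3 libraries, called KD 1, 2 and 3) is OVCAR3 with ANAPC1P2 depleted by a hairpin, and the other group is wild-type OVCAR3 (WT, n = 1 library). Both were grown in RPMI medium with serum and sequenced as total RNA after depletion of ribosomal RNA. The labels name no library with a non-targeting hairpin, so carrying a hairpin and losing ANAPC1P2 cannot be told apart. They do not say whether the knockdown cells are 1 clone, or whether the 3 sets are separate cultures or carry the same hairpin. Each p-value therefore measures the spread between 3 KD libraries, which may be technical, and the lone WT library is assumed to vary like them.

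An integrin is a heterodimer of 1 α and 1 β chain that spans the plasma membrane, and the pair decides which ligand is bound. Chains that carry αV, and α5β1, recognise short acidic motifs in fibronectin, vitronectin and latent TGF-β; a group of β1 partners binds collagen; α3β1, α6β1, α7β1 and α6β4 bind laminin; and the β2 and β7 receptors serve leukocytes. A laminin is a secreted trimer of 1 α, 1 β and 1 γ chain that polymerises into the basement membrane, and its α chain carries the main integrin-binding site. Only RNA was measured, so nothing below speaks of surface receptors or of deposited trimers.

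The WT library stood apart from the 3 KD libraries in ways that bear on all of these genes. It held 27868718 counted reads, against 48443589, 56216398 and 42871815 in KD 1, 2 and 3, and yet had reads in 36832 genes, against 31014 to 32823 in KD. Reads of the target ANAPC1P2 numbered 0, 11 and 8 in KD 1, 2 and 3, against 14 for WT, too few to check the labels firmly. OVCAR3's own epithelial markers were present throughout, with 9 listed genes summing to 83806 to 90839 normalized counts in KD and 49681 in WT. Erythroid transcripts summed to 1.55 to 3.79 in KD and 14710 in WT, led by HBB, HBA2 and ALAS2, with HBB, HBA1, HBA2, HBD and AHSP at 0 in every KD library. Markers of serous ovarian carcinoma, of which MUC16 is the most abundant, summed to 64345 to 77687 in KD and 539503 in WT. They did not move as a list, since WT was above all KD libraries for 5 of the 8 and below all of them for 3. All 15 leukocyte markers were higher in WT than in any KD library, at sums of 616 to 682 in KD and 1997 in WT. Beside this and each such count of markers below, WT lay outside the KD range, on either side, for 92.3% of all tested genes. The share of all genes with WT above every KD library was not counted. The part of such transcripts in the integrin and laminin results was not tested except where a marker stands beside a gene below, and WT, as the only control, cannot be left out.

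Values are normalized read counts as deposited, that is, reads divided by 1 factor per library. Differences are on the log2(normalized count + 1) scale, as KD minus WT, and were tested with limma over 23344 genes whose 4-library mean was 10 normalized counts or more; a gene was called at a Benjamini-Hochberg adjusted p under 0.05. Over all tested genes the median difference was -0.28, or 0.28 over protein-coding ones. With equal library totals in place of the deposited factors every difference shifts down by 0.56 at the median, so each direction given here was checked under that scaling too. Longer genes also moved less far up. Protein-coding genes were put into 4 equal bins by exonic length. The bin of the longest had a median of -0.025, against 0.70 in that of the shortest. Of the 35 tested integrin and laminin genes, 17 lie in the bin of the longest, with a median of 0.069. The 14 in the next longest bin had a median of -1.44, against 0.21 for all genes of that bin. The part of length in the results was not tested.

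Of the 38 genes, 35 passed the filter on low values, and ITGA8, ITGAD and ITGAM did not. Called genes made up 31.4% (higher) and 36.3% (lower) of all genes tested, or 67.7% in either direction. Among the 38, 10 were higher in KD, 17 were lower and 8 were tested without a call, or 28.6% higher and 48.6% lower of the 35 tested. All 38 are protein-coding, and of the tested protein-coding genes 45.9% were called higher and 24.7% lower, so the share of higher calls lay under that background and the share of lower calls over it. Of the 17 lower genes, 5 (ITGA4, ITGA10, ITGAL, ITGAX and LAMC3) passed the filter only through WT and so had to differ. The median over the 35 was -0.44, also with ITGAX at its bound. With equal totals 4 genes were called higher and 24 lower, against 20.3% and 53.6% of all genes tested (73.9% in either direction). Of 14464 tested protein-coding genes, 4314 were then called higher and 6411 lower. The 4 called higher under every alternative tried were ITGAV, ITGB1, LAMA2 and LAMA4. Of the 17 lower calls, 12 held under every alternative in which the gene was tested. Of these, ITGA4, ITGAL, ITGAX and ITGB7 were not tested at a mean of at least 50. For ITGA4, ITGAL and ITGAX, which had to differ, a call that held is no sign of robustness. The WT value lay outside the range of the 3 KD libraries for 34 of the 38 genes, as it did for 92.3% of all tested genes.

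**Figure D1:**
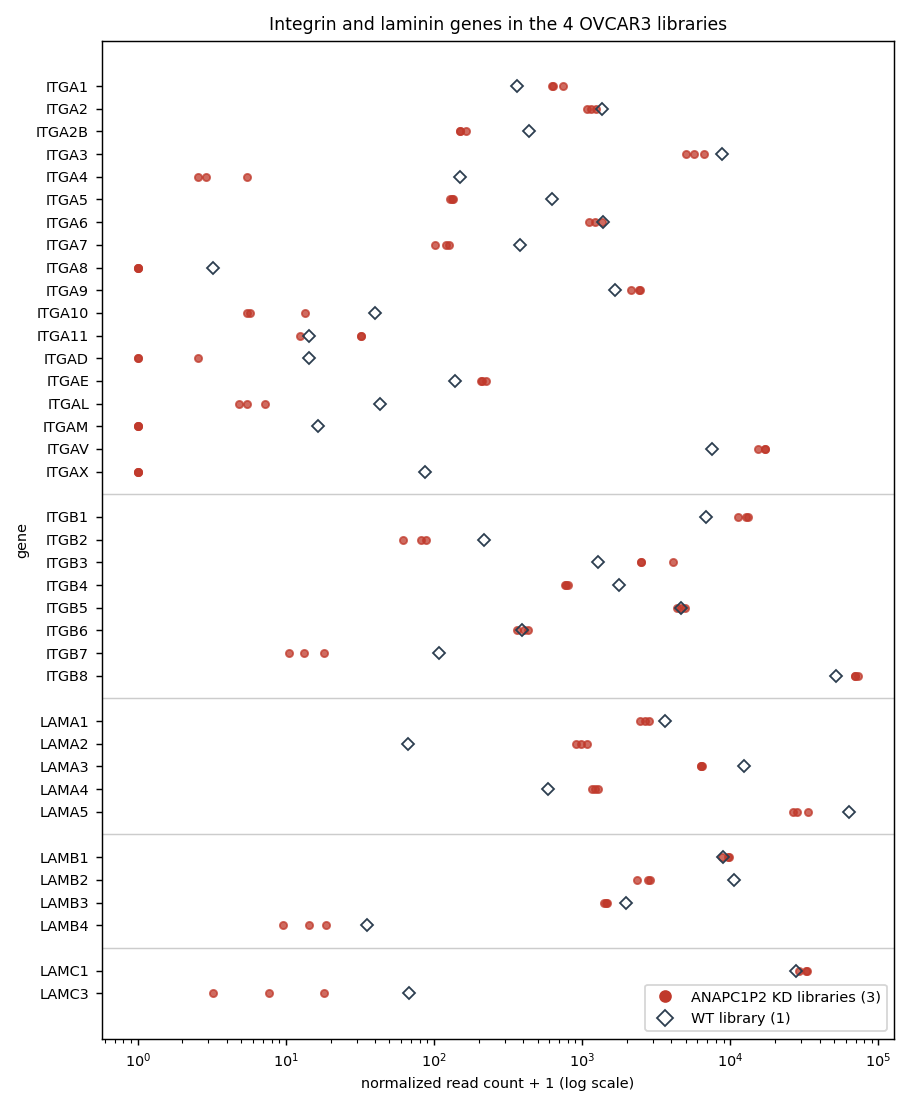
Normalized read count plus 1 on a log scale (x axis) of each integrin and laminin gene reported here (rows, grouped by chain class); filled circles are the 3 KD libraries and the open diamond is the WT library. The KD circles lie close together for abundant genes, the diamond lies far to the left of them for LAMA2 (65.5) and far to the right for ITGA4 (148), and ITGAX is at 0 in all KD libraries.

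ITGAV and ITGB1, which together form αVβ1, rose in KD. ITGAV, the αV chain that partners 5 of the β chains (chromosome 2, 186590065 to 186680901, plus strand), had 17123, 15259 and 17045 normalized counts in KD 1, 2 and 3, against 7524 in WT. All 3 KD libraries lay above WT by about the same distance, a log2 difference of 1.13 (SE 0.12, limma adjusted p = 3.43e-04), or 0.57 with equal totals. ITGB1, the β chain of the widest range of receptors (chromosome 10, 32900319 to 33005792, minus strand), had 12756, 11304 and 13099 normalized counts in KD 1, 2 and 3, against 6886 in WT. It was 0.84 higher (SE 0.12, adjusted p = 0.00134), again without overlap, and 0.28 higher with equal totals (adjusted p = 0.0186). Against the median of protein-coding genes, ITGAV stood 0.85 and ITGB1 0.56 higher, and with equal totals these distances differ only through the pseudocount.

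The promoters of this pair of genes that rose together are shown as the 250 bases before the RefSeq start (GRCh38.p14, 5′ to 3′ on the gene's strand), ITGAV from chr2:186589806-186590055 on the plus strand and ITGB1 from chr10:32958231-32958480 on the minus strand. Capitals mark the GC box, GGGCGG on either strand, the binding motif of SP1-type factors.
ITGAV: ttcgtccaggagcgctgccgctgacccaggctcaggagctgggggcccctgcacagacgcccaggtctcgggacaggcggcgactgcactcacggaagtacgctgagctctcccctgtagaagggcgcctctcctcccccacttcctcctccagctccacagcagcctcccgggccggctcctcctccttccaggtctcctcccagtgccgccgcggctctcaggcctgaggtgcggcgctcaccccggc
ITGB1: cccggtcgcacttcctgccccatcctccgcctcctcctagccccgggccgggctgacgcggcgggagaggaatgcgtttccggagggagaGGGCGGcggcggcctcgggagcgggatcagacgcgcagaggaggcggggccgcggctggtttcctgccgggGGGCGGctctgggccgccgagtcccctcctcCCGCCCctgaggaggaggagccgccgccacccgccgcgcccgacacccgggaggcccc
ITGB1 had 3 GC boxes in this window and ITGAV none, while 42.2% of all 27305 promoters of this length held at least 1. On either strand neither held TGANTCA, which AP-1 factors bind and 6.57% of all promoters contain, nor the E-box letters CAGGTG. Both were also without CCAAT, found in 33.0% of promoters, and without the letters TATAAA of a TATA box, found in 11.2%. The windows held 18 CpG in ITGAV and 32 in ITGB1, against a median of 10 over all promoters. Whether these libraries' transcripts begin at the RefSeq starts was not measured, and GENCODE places the outermost start of ITGB1 farther upstream.

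The β partners of αV did not move as 1 group. ITGB8, which with αV activates latent TGF-β, was the most abundant integrin transcript on the deposited scale as well as per kb of exonic length. It had 73187, 69202 and 69600.3 normalized counts in KD 1, 2 and 3, against 52024 in WT. All KD libraries were above WT, and the log2 difference of 0.44 was called (adjusted p = 0.0417), but the call was lost without any 1 of the KD libraries (adjusted p = 0.0618 to 0.185). With equal totals its direction turned to -0.12 (adjusted p = 0.3).

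ITGB3, the β chain of the vitronectin receptor αVβ3, had 2482, 2491 and 4118 normalized counts in KD 1, 2 and 3, against 1283 in WT. KD 3 was 1.66-fold above the lowest KD library, yet WT lay below all 3, with a log2 difference of 1.20 (SE 0.29, adjusted p = 0.0104) that missed the threshold with equal totals (0.63, adjusted p = 0.0731) and with no filter on low values (adjusted p = 0.138). In the annotation, 51.6% of its exonic bases are shared with the gene AC068234.1 on the same strand, which is listed at 0 in all libraries, so the level of ITGB3 is uncertain.

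ITGB5, another vitronectin receptor chain, had 4338, 4625 and 4943 normalized counts in KD 1, 2 and 3, against 4656 in WT. WT fell inside the KD range, and the difference was -0.0085 (SE 0.11, adjusted p = 0.948). ITGB6, an epithelial chain that also binds latent TGF-β, likewise overlapped, with 364, 404 and 432 normalized counts in KD 1, 2 and 3, against 394 in WT and a difference of 0.018 (SE 0.16, adjusted p = 0.926). With equal totals both were called lower (-0.57 and -0.54), which is the shift of the scaling itself.

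Collagen receptors were split. ITGA1, which binds basement membrane collagen (chromosome 5, 52787896 to 52959210, plus strand), had 746, 638 and 627 normalized counts in KD 1, 2 and 3, against 359.9 in WT. It rose by 0.89 on the log2 scale (SE 0.15, adjusted p = 0.00254), though not with equal totals (0.33, adjusted p = 0.0901). The gene PELO lies inside ITGA1 on the same strand, shares 2.56% of its exonic bases and was also higher in KD, so reads at the common bases are uncertain. ITGA2, which prefers fibrillar collagen, had 1230.3, 1149 and 1068 normalized counts in KD 1, 2 and 3, against 1353 in WT. WT was above the KD libraries, but the difference of -0.24 was not called (adjusted p = 0.116) and it was called lower with equal totals (-0.80, adjusted p = 0.00287).

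The other collagen-binding chains were rare. ITGA10, of cartilage, had 5, 16 and 4 reads in KD 1, 2 and 3, against 35 in WT, or 4.74, 12.4 and 4.45 normalized counts in KD 1, 2 and 3, against 38.9 in WT. It was called lower (-2.41, adjusted p = 0.0269), with WT 5.04 times the KD rate (95% exact counting interval 2.93 to 8.79) and 8.44 times without KD 2. The call was lost without KD 1 (adjusted p = 0.0683), without KD 3 (0.0615), with DESeq2 (0.0716) and with no filter (0.117). ITGA11, of fibroblasts, had 12, 40 and 28 reads in KD and 12 in WT, with WT inside the KD range, and was not called (adjusted p = 0.395). Fibroblast markers summed to 555 to 654 in KD and 1224 in WT.

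ITGA5 fell in KD, unlike its partner ITGB1. ITGA5, the α chain of the fibronectin receptor α5β1 (chromosome 12, 54395261 to 54419460, minus strand), had 127, 132 and 133 normalized counts in KD 1, 2 and 3, against 622 in WT. The KD libraries lay close together and all under WT, with a log2 difference of -2.24 (SE 0.19, adjusted p = 1.47e-04) while ITGB1 rose. Per kb the ratio of ITGA5 to ITGAV was 0.00804, 0.00938 and 0.00848 in KD 1, 2 and 3 and 0.0896 in WT, a within-library comparison that no scaling alters. FN1, which encodes fibronectin and is given as this receptor's ligand, outside the rule by which list genes are named, had 7123, 6644 and 12647 normalized counts in KD 1, 2 and 3, against 8860 in WT (not called, log2 difference -0.072, adjusted p = 0.859).

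ITGA4, which binds VCAM1 and fibronectin and is best known from leukocytes, had 2, 2 and 4 reads in KD and 133 in WT, or 1.90, 1.55 and 4.45 normalized counts in KD 1, 2 and 3, against 148 in WT. WT was 59.9 times the KD rate (95% exact counting interval 29.5 to 142; log2 difference -5.44, adjusted p = 9.28e-04), and 86.5 times without KD 3, which held 4 of the 8 KD reads. ITGA9, a receptor for tenascin C and VCAM1 (chromosome 3, 37452115 to 37823514, plus strand), had 2140.2, 2409 and 2465 normalized counts in KD 1, 2 and 3, against 1668 in WT and was called higher (0.48, adjusted p = 0.0104). With equal totals it stood at 46.6, 55.1 and 51.7 RPM in KD and 53.9 in WT; its difference was then -0.079 (adjusted p = 0.538), and the call was also lost with no filter (adjusted p = 0.0682). ITGA8, a nephronectin receptor chain, had 0 reads in KD and 2 in WT, under the floor of 3 reads.

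Of the α chains that bind laminin, ITGA3 and ITGA7 were called lower in KD and ITGA6 was not called. ITGA3, the α3 chain of epithelial cells (chromosome 17, 50055968 to 50090481, plus strand), had 5042, 5729 and 6644 normalized counts in KD 1, 2 and 3, against 8851 in WT. All KD libraries were below WT, a log2 difference of -0.62 (SE 0.16, adjusted p = 0.0135), or -1.18 with equal totals, and the call was lost without KD 2 (adjusted p = 0.0704), with no filter (0.122) and with upper-quartile and ratio-median scaling (0.0505 and 0.0862). ITGA6, the chain shared by α6β1 and α6β4, had 1118, 1222 and 1356 normalized counts in KD 1, 2 and 3, against 1391 in WT. KD 3 came close to WT, and the difference of -0.18 was not called (adjusted p = 0.264), although it was with equal totals (-0.74).

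ITGB4, whose long cytoplasmic tail links α6β4 to keratin filaments in hemidesmosomes (chromosome 17, 75721328 to 75757818, plus strand), had 764, 807 and 777 normalized counts in KD 1, 2 and 3, against 1762 in WT. The KD libraries differed little and lay well under WT, with a log2 difference of -1.17 (SE 0.11, adjusted p = 1.99e-04). Per kb, ITGA6 exceeded its partner ITGB4 by factors of 1.52, 1.57 and 1.81 in KD and stood below it in WT, at 0.817. ITGA7, the laminin receptor chain of muscle, had 100.5, 125 and 120.1 normalized counts in KD 1, 2 and 3, against 379 in WT and was lower in KD (-1.71, adjusted p = 0.00103); muscle markers listed beside it summed to 125 to 152 in KD and 159 in WT, with ACTA1 at 0 in KD and MYOD1 and MYOG at 0 in WT.

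Among laminin α chains LAMA2 and LAMA4 rose, and LAMA5 and LAMA3 fell, while LAMA1 was called lower under some scalings only. LAMA2, the α2 chain of muscle and peripheral nerve (chromosome 6, 128883141 to 129516569, plus strand), had 913, 1071 and 982 normalized counts in KD 1, 2 and 3, against 65.5 in WT. It was 15.1-fold higher in KD, the largest rise among the 38 genes, with a log2 difference of 3.89 (SE 0.15, adjusted p = 6.57e-05), or 3.33 with equal totals. Muscle markers, whose sums are given above, were no higher in KD than in WT as a sum, and neural and glial markers summed to 5613 to 6381 in KD and 6608 in WT, with NEUROD6 at 0 in KD. LAMA4, the α4 chain of blood vessel walls (chromosome 6, 112108760 to 112254939, minus strand), had 1171, 1282 and 1213 normalized counts in KD 1, 2 and 3, against 586 in WT. Its difference was 1.06 (SE 0.11, adjusted p = 3.43e-04), or 0.49 with equal totals (adjusted p = 0.0121). Endothelial markers did not rise with LAMA4 as a list: they summed to 548 to 683 in KD and 693 in WT, and WT was above all KD libraries for 6 of the 8.

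LAMA5, the α5 chain of most adult epithelial basement membranes (chromosome 20, 62307955 to 62367312, minus strand), was the most abundant laminin transcript in WT and had 26444, 33369 and 28119.8 normalized counts in KD 1, 2 and 3, against 63233 in WT. KD 2 was the highest of the 3 and still far under WT; the log2 difference was -1.12 (SE 0.17, adjusted p = 0.00164). LAMA3, the α3 chain of the anchoring laminin under hemidesmosomes (chromosome 18, 23689443 to 23956222, plus strand), had 6421, 6326 and 6290.1 normalized counts in KD 1, 2 and 3, against 12349 in WT. The KD libraries were nearly equal to each other, and the difference was -0.96 (SE 0.094, adjusted p = 2.58e-04). LAMA1, the α1 chain of early embryonic basement membranes, had 2469, 2658 and 2834 normalized counts in KD 1, 2 and 3, against 3603 in WT. It was called lower (-0.44, adjusted p = 0.0123), also with equal totals (-1.01), but not with the TMM, upper-quartile or ratio-median scaling (adjusted p = 0.0827, 0.0831 and 0.189) or with no filter (0.0679).

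Among β chains LAMB2 fell, and LAMB1 was not called. LAMB2, the β2 chain of the kidney filter and the neuromuscular junction (chromosome 3, 49121114 to 49133118, minus strand), had 2341, 2860.4 and 2777 normalized counts in KD 1, 2 and 3, against 10644 in WT. It was 4.00-fold lower in KD, with no overlap and a log2 difference of -2.01 (SE 0.13, adjusted p = 8.02e-05), or -2.57 with equal totals. Its neighbouring pseudogene LAMB2P1 was lower too, at 37.0, 34.2 and 34.5 in KD and 218 in WT, and reads common to both may be shared or dropped. LAMB1, the β1 chain, had 8742, 9849.5 and 9688 normalized counts in KD 1, 2 and 3, against 8971 in WT, with WT inside the KD range and a difference of 0.069 (SE 0.11, adjusted p = 0.602); it was called higher with the TMM, upper-quartile and ratio-median scaling (0.30, 0.28 and 0.35) and lower with equal totals (-0.49), so no direction is given. Within each library the ratio of LAMB1 to LAMB2 per kb was 3.15, 2.90 and 2.94 in KD 1, 2 and 3 and 0.711 in WT, so the leading β chain was LAMB1 in KD and LAMB2 in WT.

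LAMB3, the β3 partner of LAMA3, had 1442, 1393 and 1476 normalized counts in KD 1, 2 and 3, against 1970.4 in WT and was called lower (-0.46, adjusted p = 0.00716), but not with upper-quartile or ratio-median scaling (adjusted p = 0.058 and 0.143). LAMB4 was rare, with 9, 17 and 16 reads in KD and 31 in WT, and was not called (-1.38, adjusted p = 0.0804), though it was called lower with equal totals (-1.92, adjusted p = 0.0282).

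The 250 bases before the RefSeq start follow for the laminin genes whose levels changed most among abundant ones, LAMA2 from chr6:128882888-128883137 on the plus strand, LAMA5 from chr20:62367313-62367562 on the minus strand and LAMB2 from chr3:49133051-49133300 on the minus strand. Capitals mark GC boxes (GGGCGG) and, in LAMA5, 1 E-box (CAGGTG), the motif bound by repressors of epithelial genes among others.
LAMA2: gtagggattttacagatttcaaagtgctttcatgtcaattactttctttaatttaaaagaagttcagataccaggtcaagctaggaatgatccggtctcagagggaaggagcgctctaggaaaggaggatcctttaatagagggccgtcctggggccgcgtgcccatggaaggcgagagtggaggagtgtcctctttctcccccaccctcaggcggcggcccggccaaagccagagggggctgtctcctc
LAMA5: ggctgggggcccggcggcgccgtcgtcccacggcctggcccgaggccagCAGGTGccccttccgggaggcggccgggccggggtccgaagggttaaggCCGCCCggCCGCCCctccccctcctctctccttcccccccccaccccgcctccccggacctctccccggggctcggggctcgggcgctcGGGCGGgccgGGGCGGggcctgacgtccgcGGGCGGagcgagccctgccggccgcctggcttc
LAMB2: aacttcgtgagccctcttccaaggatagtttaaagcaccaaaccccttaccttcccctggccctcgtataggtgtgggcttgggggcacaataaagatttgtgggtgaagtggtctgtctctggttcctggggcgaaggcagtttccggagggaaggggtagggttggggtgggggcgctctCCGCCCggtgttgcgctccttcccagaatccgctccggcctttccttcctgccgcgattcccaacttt
LAMA5 held 5 GC boxes, LAMB2 1 and LAMA2 none, and an E-box stands in 17.5% of all promoters of this length. LAMA2 had the fewest CpG of the 5 promoters shown, at 9, against 32 in LAMA5 and 12 in LAMB2. The LAMB2 window overlaps the start of the gene as GENCODE draws it. None of the 3 held the AP-1, CCAAT-box or TATA-box letters given above. Of the 38 genes 26 have an entry in this table, and 13 of those 26 hold a GC box.

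LAMC1, the γ1 chain of most laminins (chromosome 1, 183023460 to 183145592, plus strand), had 28872, 33031 and 32509 normalized counts in KD 1, 2 and 3, against 27592 in WT. KD 1 was close to WT, and the difference of 0.19 was not called (adjusted p = 0.266); it was called higher with the TMM, upper-quartile and ratio-median scaling (0.42, 0.40 and 0.47) and lower with equal totals (-0.38). LAMC3 had 7, 22 and 2 reads in KD and 60 in WT. It was called lower (adjusted p = 0.0272), with WT 6.97 times the KD rate (4.45 to 11.1) and 14.5 times without KD 2, which held most of the KD reads; the call was lost without KD 1 (adjusted p = 0.0738), with thinned KD reads (0.0827) and with no filter (0.17).

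**Figure D2:**
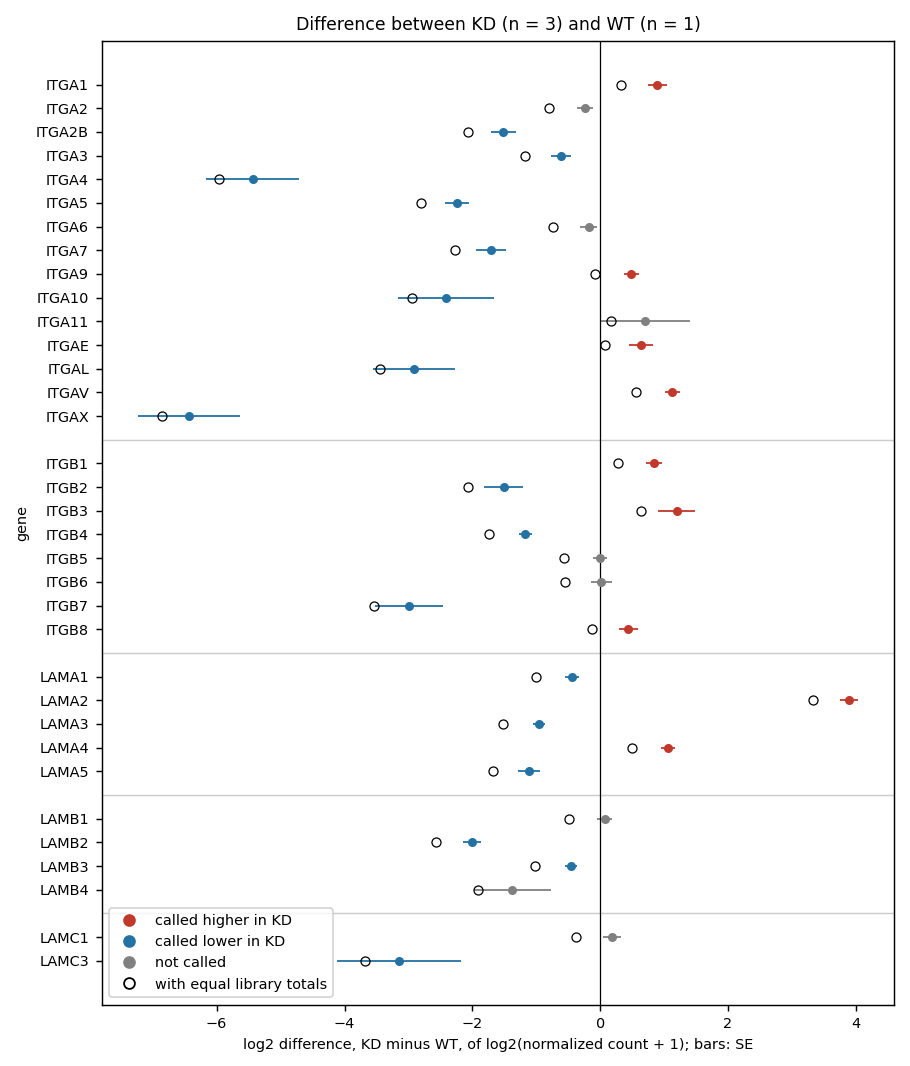
Log2 difference, KD minus WT, of log2(normalized count + 1) for the tested genes reported here (x axis; rows grouped by chain class); filled points with SE bars use the deposited scaling and open circles equal library totals. LAMA2 stands alone on the right at 3.89, ITGAX and ITGA4 on the left at -6.44 (a fitted value that depends on the pseudocount, since KD had no read) and -5.44, and ITGA9, ITGB6, ITGB8, LAMB1 and LAMC1 cross 0 when totals are made equal.

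Leukocyte integrins were scarce in KD and present in WT at low level. ITGAX, the αX chain of macrophages and dendritic cells, had no read in KD and 77 reads in WT (85.5 normalized counts), at least 92.4-fold lower in KD against a floor of 3 reads over the group. ITGAM, of neutrophils and macrophages, had no read in KD and 14 in WT (at least 16.8-fold lower), and ITGAD had 0, 2 and 0 in KD and 12 in WT, where WT was 21.6 times the KD rate (4.81 to 199). ITGAL, of lymphocytes, had 4, 8 and 4 reads in KD and 38 in WT, 8.55 times the KD rate (4.66 to 16.4; adjusted p = 0.00734). Their common β2 chain ITGB2 (chromosome 21, 44885953 to 44931989, minus strand) was above 0 in every library, with 60.7, 80.0 and 86.7 normalized counts in KD 1, 2 and 3, against 215 in WT and a log2 difference of -1.51 (SE 0.31, adjusted p = 0.00564).

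These genes moved with the leukocyte markers given above, among which LYZ, FCGR3B, CD68, MS4A1 and CD3D were at 0 in all KD libraries and at up to 217 (FCGR3B) in WT; their part in the result was not tested. In bulk RNA, fewer cells of a type and less RNA per cell cannot be told apart. ITGB7, the β chain of gut-homing lymphocytes, had 9.48, 17.1 and 12.2 normalized counts in KD 1, 2 and 3, against 107 in WT (-2.99, adjusted p = 0.0032). Of its exonic bases 42.1% lie opposite ZNF740, and the kit marks strand while the strand setting of the counting is not stated, so its reads are uncertain. ITGAE, which with β7 binds E-cadherin, went the other way, with 224, 205 and 210.1 normalized counts in KD 1, 2 and 3, against 137 in WT. Its call (0.64, adjusted p = 0.0254) was lost without any 1 KD library (adjusted p = 0.0556 to 0.0918), with DESeq2 (0.0941) and with equal totals (0.72), and it lies partly opposite HASPIN, which was higher in KD as well.

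ITGA2B, the αIIb chain of the platelet fibrinogen receptor, had 162, 149 and 149 normalized counts in KD 1, 2 and 3, against 439.8 in WT and was lower in KD (-1.51, SE 0.19, adjusted p = 7.20e-04). The 7 platelet markers summed to 56.7 to 63.7 in KD and 269 in WT; PF4, GP9, GP1BB and TREML1 were at 0 in WT and GP9, GP1BB and GP6 at 0 in KD, while GP1BA stood at 60.7, 60.6 and 52.3 in KD and 258 in WT. ITGA2B fell, while its partner ITGB3 was called higher on the deposited scale and not with equal totals.

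Within a library the make-up of each chain class does not depend on the scaling between libraries, and it separated KD from WT most in the α integrins and the laminin β chains. Shares are of normalized counts per kb of exonic length, summed over the class. ITGAV held 59.9% ± 2.52 (SD, n = 3) of the α integrin signal in KD and 33.7% in WT, and ITGA3 17.7% ± 1.94 in KD and 33.2% in WT. All other α chains together were the minor part in KD, with ITGA9 at 8.44% ± 0.655 in KD and 7.42% in WT. ITGA5 made up 0.516% ± 0.0248 in KD and 3.02% in WT.

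ITGB8 led the β integrins in all 4 libraries. It held 55.9% ± 2.71 in KD and 57.3% in WT, a difference below the KD spread. ITGB1 held 24.7% ± 0.887 in KD and 19.1% in WT, ITGB5 8.62% ± 0.529 in KD and 12.1% in WT, and ITGB4 1.39% ± 0.0968 in KD and 4.35% in WT. ITGB3 held 8.21% ± 2.23 in KD and 4.87% in WT. Without division by length the shares were 76.8% in KD and 77.3% in WT for ITGB8, 13.5% in KD and 10.2% in WT for ITGB1, 5.04% in KD and 6.92% in WT for ITGB5, 0.852% in KD and 2.62% in WT for ITGB4 and 3.29% in KD and 1.91% in WT for ITGB3. Their size depends on the exonic length used, while those of ITGB1 and ITGB3 were higher in KD and those of ITGB5 and ITGB4 lower either way.

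In laminin, LAMA5 led the α chains with 71.8% ± 2.09 in KD and 79.7% in WT, and LAMA3 held 15.3% ± 1.47 in KD and 15.2% in WT. LAMA2 held 3.35% ± 0.0658 in KD and 0.114% in WT, and LAMA4 3.71% ± 0.170 in KD and 0.913% in WT. LAMB1 held 62.5% ± 0.325 of the β chains in KD and 35.8% in WT, LAMB2 20.9% ± 0.961 in KD and 50.4% in WT, and LAMB3 16.6% ± 1.21 in KD and 13.7% in WT. Without division by length that of LAMB3 was 10.6% in KD and 9.11% in WT. With 1 WT library these shares carry no test.

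**Figure D3:**
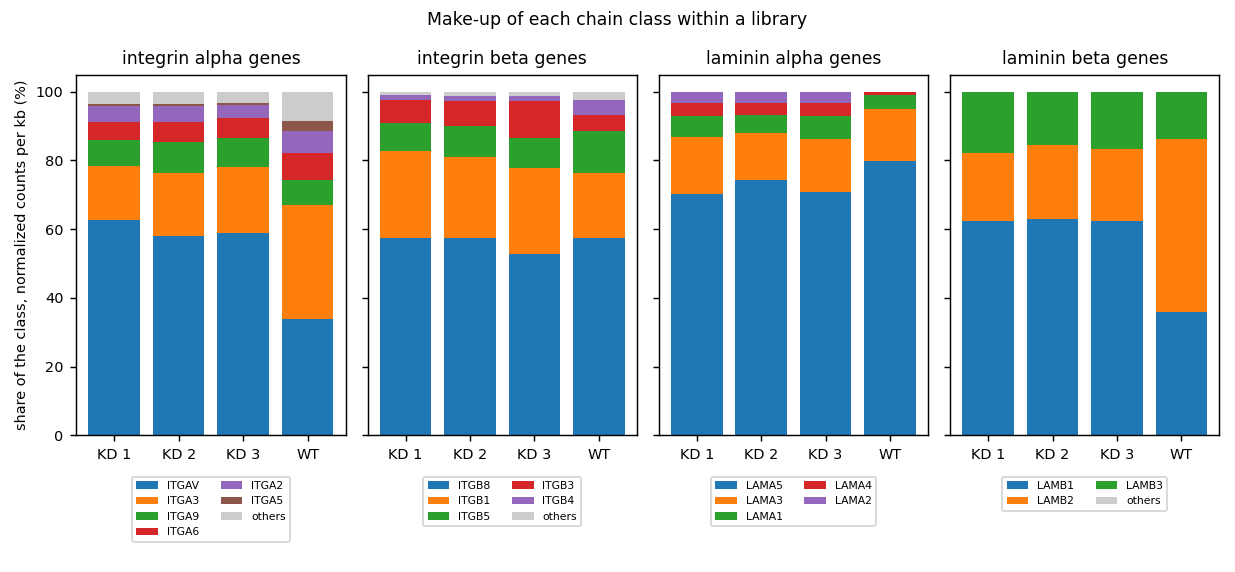
Share of each gene in its chain class (y axis, percent of normalized counts per kb) in KD 1, 2, 3 and WT (x axis), 1 panel for each class except the laminin γ chains; genes under 3% in every library are pooled as others. The 3 KD bars are alike in each panel, and the WT bar differs most for ITGAV and ITGA3 and for LAMB1 and LAMB2.

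Paired by receptor, both chains were called higher in 5 of 24 integrins: α1β1, α9β1, αVβ1, αVβ3 and αVβ8, of which only αVβ1 had both chains called higher with equal totals. Both chains were called lower in 3, α4β7, αLβ2 and αXβ2, whose α genes all passed the filter only through WT. In 7 the chains were called in opposite directions: α3β1, α4β1, α5β1, α7β1 and α10β1, with the α chain lower and ITGB1 higher, αIIbβ3 likewise lower and higher, and αEβ7, with the α chain higher and ITGB7 lower. With equal totals ITGB3 and ITGAE lost their calls, so αIIbβ3 and αEβ7 then had no opposite calls. The calls of ITGA3 and ITGA10 were lost under the alternatives given above. Receptors that share a chain are not separate results: all β1 receptors rest on the same ITGB1 call. ITGA4 and ITGA10 passed the filter only through WT. Of all tested genes 31.4% were called higher and 36.3% lower, and no share over pairs of other genes was computed. In 6 one chain was not called, and in 3 (α8β1, αMβ2 and αDβ2) the α chain was not tested. In each β1 receptor the α gene was the less abundant chain per kb in every library, αVβ1 included, where ITGAV reached 0.983, 0.988 and 0.953 of ITGB1 in KD and 0.80 in WT. In the 10 laminin trimers set side by side LAMC1, which was not called, is the γ chain throughout.

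**Figure D4:**
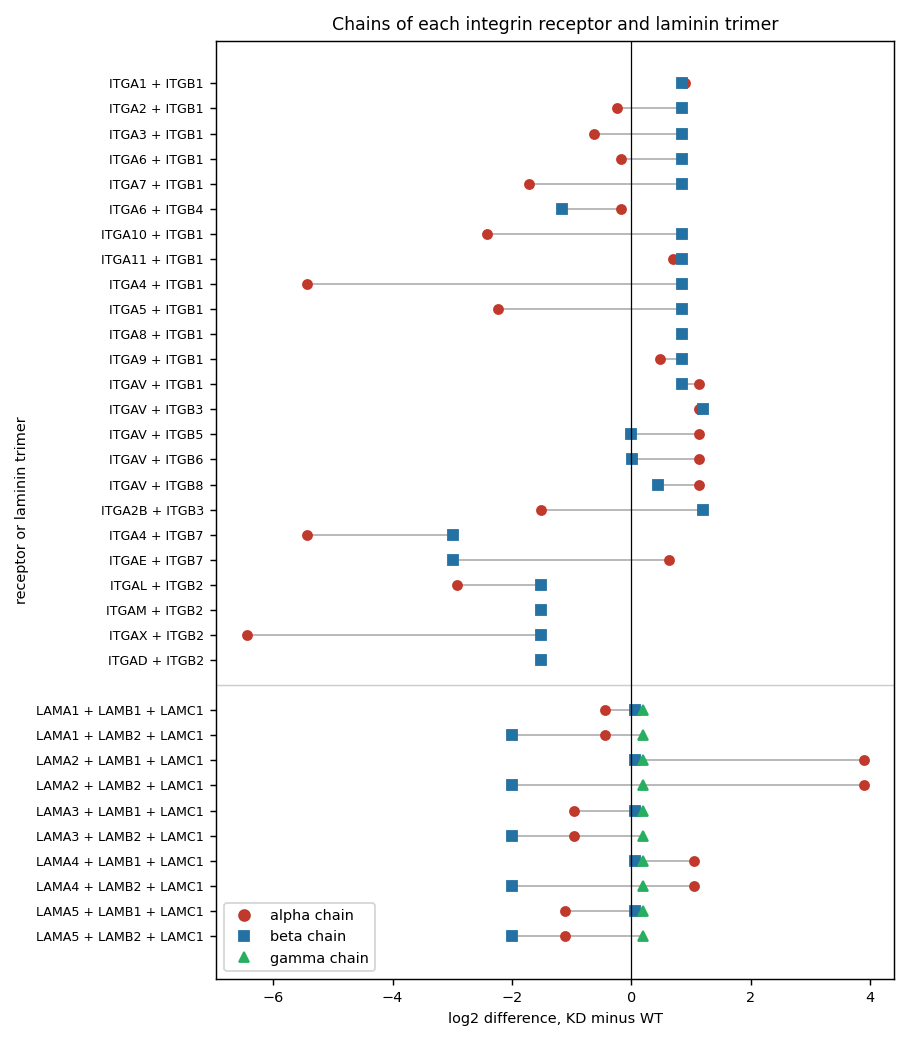
Log2 difference, KD minus WT (x axis), of the chains of each integrin receptor and laminin trimer (rows); circles are α chains, squares β chains, triangles γ chains, a grey line joins the chains of 1 complex, and untested chains are left out. The chains of αVβ1 (1.13 and 0.84) and αVβ3 (1.13 and 1.20) lie together on the right, while those of α5β1 (-2.24 and 0.84) lie on opposite sides of 0.

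On the laminin side the receptor chains ITGA3, ITGA7 and ITGB4 and the ligand chains LAMA1, LAMA3, LAMA5, LAMB2, LAMB3 and LAMC3 were called lower, ITGB1, LAMA2 and LAMA4 were called higher, and ITGA6, LAMB1, LAMB4 and LAMC1 were not called. The list of other integrin ligands had 5 of 35 genes called higher and 12 lower, with 10 under the filter. Of those tested these were 20% higher and 48% lower, against 31.4% and 36.3% of all genes and 45.9% and 24.7% of protein-coding genes. How many of the lower calls passed the filter only through WT was not counted. At a mean of at least 50, 9 ligands were called lower and 4 higher. EDIL3, an αV ligand of the endothelium, had 669, 549 and 783 normalized counts in KD 1, 2 and 3, against 188 in WT (1.81, adjusted p = 5.12e-04), and THBS1, thrombospondin 1, had 8689, 7514 and 8472 normalized counts in KD 1, 2 and 3, against 4612 in WT (0.83, adjusted p = 0.00121). SPP1, osteopontin, had 171, 163 and 269 normalized counts in KD 1, 2 and 3, against 101 in WT; its call (0.95, adjusted p = 0.0388) was lost with equal totals, with no filter, with thinned KD reads and without any 1 KD library. Among called ligands reaching 100 normalized counts in WT, the largest falls were those of EMILIN1, JAM3 and COL1A2. Their differences were -3.55, -2.33 and -2.29 (adjusted p = 0.00121, 0.002 and 0.0071). EMILIN1 had a KD mean of 9.66 normalized counts, under the filter of 10, so it passed only through WT and had to differ. It had 9, 12 and 10 reads in KD 1, 2 and 3, against 111 in WT. For EMILIN1, WT was 12.9 times the KD rate (exact counting interval 8.59 to 19.9). COL1A2 lost its call with no filter.

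Most basement membrane partners of laminin were called lower. Of 23 genes 15 were called lower and 3 higher, with 2 untested and a median of -1.29, against -0.28 over all tested genes and 0.28 over protein-coding ones. Of those tested 71.4% were called lower and 14.3% higher, against 36.3% and 31.4% of all genes and 24.7% and 45.9% of protein-coding genes. Lower calls that passed the filter only through WT were not counted here either. At a mean of at least 50, 13 of these genes were called lower and 4 higher. Fibroblast markers, whose sums are given above, were also higher in WT than in every KD library for 6 of 9 genes, with COL3A1 at 0 in KD and DCN at 0 in WT; their part in the result was not tested. The nidogens, which tie laminin to collagen IV, parted: NID1 had 43.6, 73.0 and 60.0 normalized counts in KD 1, 2 and 3, against 1435 in WT (-4.61, adjusted p = 9.00e-05), and NID2 had 32261, 31919 and 32429 normalized counts in KD 1, 2 and 3, against 8282 in WT (1.96, adjusted p = 6.71e-05), or -5.17 and 1.40 with equal totals. HSPG2, which encodes the proteoglycan perlecan, had 3953, 4852 and 4550.3 normalized counts in KD 1, 2 and 3, against 18354 in WT (-2.05, adjusted p = 7.67e-05), and the collagen IV gene COL4A5 had 62.6, 45.1 and 26.7 normalized counts in KD 1, 2 and 3, against 606 in WT (-3.81, adjusted p = 7.20e-04). TINAGL1, a laminin-binding matrix protein, had 3073, 2658 and 3515 normalized counts in KD 1, 2 and 3, against 1542 in WT and was higher (0.99, adjusted p = 0.00204), as was FREM1 (1.04, adjusted p = 0.016), whose call was lost with equal totals, without KD 2, without KD 3 and with no filter; TINAGL1 lost its call with no filter.

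Receptors for laminin outside the integrin family and hemidesmosome genes went both ways, with 10 of 22 called higher and 9 lower (5 and 14 with equal totals). Of those tested these were 47.6% higher and 42.9% lower, against 31.4% and 36.3% of all genes and 45.9% and 24.7% of protein-coding genes. With equal totals 4314 of 14464 tested protein-coding genes were called higher and 6411 lower. BCAM, the Lutheran antigen and a receptor for LAMA5, fell beside its ligand, with 8497, 11255 and 10566 normalized counts in KD 1, 2 and 3, against 32150.1 in WT (-1.68, adjusted p = 2.98e-04). COL17A1, a hemidesmosome collagen, fell beside ITGB4, with 162, 192 and 147 normalized counts in KD 1, 2 and 3, against 653 in WT (-1.97, adjusted p = 3.84e-04). SGCD, a sarcoglycan of the dystroglycan complex, stood at -2.75 (adjusted p = 1.80e-04), while SDC2 and SGCB rose by 1.15 and 0.98 (adjusted p = 2.28e-04 and 7.20e-04). RPSA, named as a laminin receptor but also a protein of the small ribosomal subunit, rose by 2.42 (adjusted p = 6.94e-05).

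Among 42 genes of integrin activation and adhesion adaptors, 20 were called higher and 11 lower, with 1 untested and a median of 0.33, close to the 0.28 of all tested protein-coding genes. Of those tested 48.8% were called higher and 26.8% lower, near the 45.9% and 24.7% of protein-coding genes, so the list held about as many calls as those. With equal totals the split was 9 and 19, beside 4314 higher and 6411 lower of 14464 tested protein-coding genes. RAP1A, a small GTPase that activates integrins through talin, had 8199.5, 7092 and 8532 normalized counts in KD 1, 2 and 3, against 1755 in WT (2.17, adjusted p = 6.82e-05). TNS4, a tensin that binds β1 tails, had 2659, 3365 and 2644 normalized counts in KD 1, 2 and 3, against 669 in WT (2.10, adjusted p = 1.05e-04), and LIMS1, a partner of the integrin-linked kinase, had 6584, 5928 and 7294 normalized counts in KD 1, 2 and 3, against 1556 in WT (2.08, adjusted p = 7.39e-05). FERMT3, the kindlin of blood cells, had 54.0, 63.7 and 54.5 normalized counts in KD 1, 2 and 3, against 202 in WT (-1.80, adjusted p = 0.00227) and so moved with the leukocyte integrins and markers. KRIT1 and KANK1 fell by 0.95 and 0.81 on the log2 scale (adjusted p = 3.83e-04 and 0.00176).

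**Figure D5:**
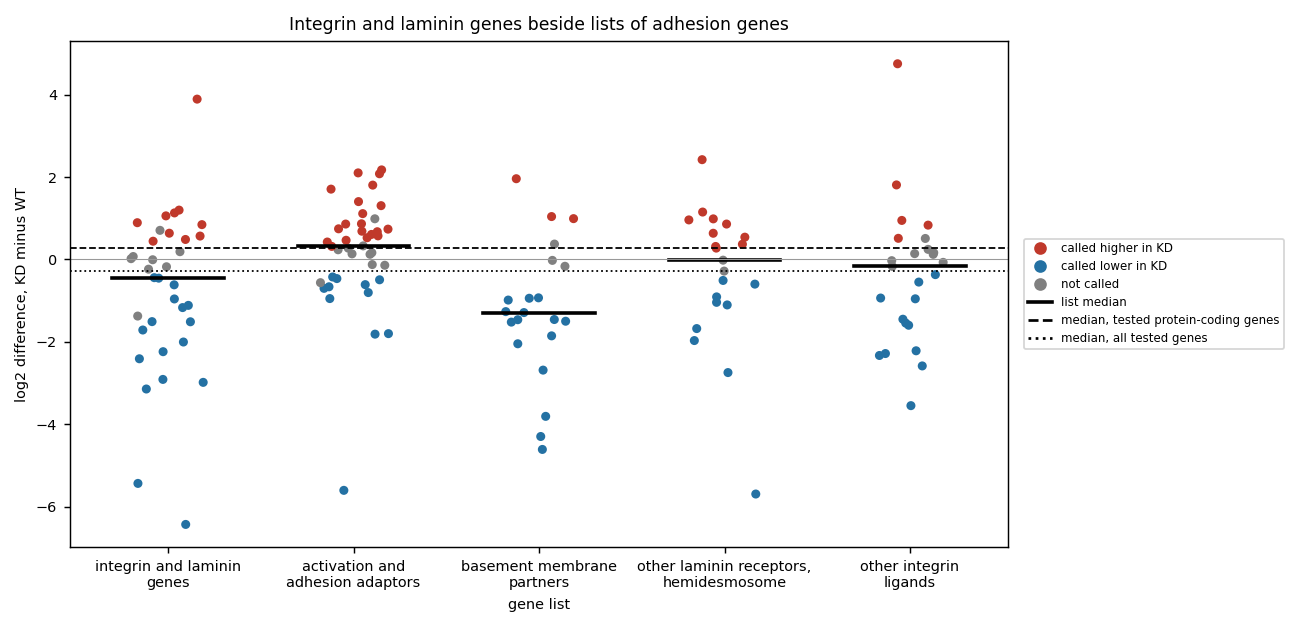
Log2 difference, KD minus WT (y axis), of each tested gene in the integrin and laminin genes and in 4 lists of adhesion genes (x axis); points are genes coloured by call, thick bars list medians, and the dashed and dotted lines the medians of protein-coding and of all tested genes. The basement membrane list has the lowest median, -1.29, and the adaptors the highest, 0.33.

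Between the KD libraries the genes were steady. For the 26 genes with a KD mean of at least 100 normalized counts the coefficient of variation over KD 1, 2 and 3 had a median of 7.12% and ran from 1.07% to 31.1%, against a median of 7.39% over 12766 tested genes at this level. LAMA3 was the steadiest and ITGB3 the most variable, and 0.846% of the tested genes at this level varied as much as ITGB3 or more.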

How the data were processed

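Total RNA of 4 OVCAR3 libraries (3 KD, 1 WT) was sequenced. The deposited values are a normalized signal, read counts per gene divided by 1 factor per library by the authors (the library kit marks strand, per the labels); per the submitters' processing notes the tools named were STAR 2.7.11b, featureCounts 2.0.6 and DESeq2 on hg38. The sources used here state neither how factors were set nor the strand and multi-mapping settings of the counting. In every library 100% of the values were whole multiples of 1 step (tolerance 0.001 reads), which gave back the reads, 27868718 to 56216398 per library.

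Differences were tested with limma 3.58.1 (trend) in R 4.3.3 on log2(normalized count + 1) over 23344 genes with a mean of at least 10, two-sided, with Benjamini-Hochberg adjustment. Because WT has 1 library, the residual spread comes from KD only, and an exact permutation of these 4 libraries could not give a two-sided p under 0.5. Count tests on the recovered reads with the deposited factors called 7402 genes higher and 9271 lower with edgeR 4.0.16, and 6913 higher and 7079 lower with DESeq2 1.42.0. Each fit was tested on simulated data with known changes in a small part of the genes. There every library, WT included, was given the same spread. The simulation therefore cannot show whether the lone WT library varies like KD, nor how the fits do when most genes are called. Lengths, positions (GRCh38) and overlaps come from GENCODE 29, which held 92.9% of all IDs and all 38 genes; promoters are from RefSeq. Intervals of read ratios and the floor of 3 reads cover counting error only.

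The integrin and laminin genes, the 4 lists of adhesion genes and the 9 marker lists were chosen with earlier results of these data known. All 38 genes enter the counts; 1 of them, and 1 marker gene, are not reported here. Of each adhesion list, up to 3 called genes with the largest rise and 3 with the largest fall are named among those reaching 100 normalized counts in the higher group, and of marker lists genes at 0 and some of the highest in WT. Promoters shown were chosen after the values were seen. Alternatives tried were pseudocounts of 0.5 and 5, no filter and a mean of at least 50, equal totals, TMM, the upper quartile and the median of ratios (called ratio-median) as scalings, edgeR, DESeq2, KD reads thinned to WT depth, shares of reads without division by length, and leaving out each KD library.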

Additional observations from a re-analysis of the deposited data

How the results depend on the processing

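Over all tested genes, 4746 were called higher with equal totals, against 7329 as reported, and 5086 lower at a mean of at least 50, against 8465. Equal totals gave 12509 lower over all genes, and 4314 higher and 6411 lower among 14464 tested protein-coding genes. Called higher over all genes were 8601, 8455 and 8758 with TMM, upper-quartile and ratio-median scaling, and 6544 with no filter. The counts below are to be read beside these. Over the integrin and laminin genes, 4 were called higher with equal totals and 11 lower at a mean of at least 50. For integrins alone these counts were 2 and 6, and for laminins 5 were called higher with TMM, upper-quartile or ratio-median scaling. With equal totals the adaptors had 9 higher and 19 lower, the other laminin receptors 5 higher and 14 lower, and the other integrin ligands 3 higher, or 9 with TMM, upper-quartile or ratio-median scaling; 1 basement membrane gene was called higher with no filter. Leaving out 1 KD library gave 8 integrin and laminin genes higher and 15 to 16 lower (integrins 5 higher and 10 lower, laminins 3 higher and 5 to 6 lower), and 6500 to 6850 higher and 7118 to 7962 lower over all genes. For the lists it gave 17 to 18 higher and 9 to 11 lower adaptors, 2 to 3 higher and 13 to 15 lower basement membrane genes, 7 to 9 higher and 9 lower other laminin receptors, and 4 higher and 9 to 10 lower other ligands.

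Directions turned as follows, and the cause was not tested beyond the shift of the scaling itself. With equal totals the log2 difference was -0.079 for ITGA9, -0.54 for ITGB6, -0.12 for ITGB8, -0.49 for LAMB1 and -0.38 for LAMC1, and the medians were -0.56 for integrin β chains, -0.38 for laminin γ chains and -0.23 for the adaptors. With the TMM, upper-quartile and ratio-median scaling, ITGA6 was at 0.053, 0.036 and 0.10, ITGB5 at 0.22, 0.21 and 0.27, the median of other laminin receptors at 0.21, 0.20 and 0.26 and that of other ligands at 0.061, 0.045 and 0.11. With ratio-median scaling ITGA2 and the median of integrin genes were at 0.042. At a mean of at least 50 the medians were 0.21 for all genes and 0.13 for other laminin receptors. With KD reads thinned, ITGB6 was at -0.014, the integrin β median at -0.020 and the median of other laminin receptors at 0.0018. Leaving out 1 KD library (lowest without KD 3, highest without KD 1), ITGB5 ranged from -0.056 to 0.038, ITGB6 from -0.040 to 0.084, the integrin β median from -0.048 to 0.061 and the median of other laminin receptors from -0.087 to 0.092.

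Among the 27 called genes, 16 kept their call under every alternative in which they were tested, and 11 lost it in at least 1. The 16 include ITGA4, ITGAL and ITGAX, which passed the filter only through WT, so their kept calls are no sign of robustness. ITGA4, ITGA10, ITGAL, ITGAX, ITGB7, LAMB4 and LAMC3 each had fewer than 50 reads over the 3 KD libraries. LAMB4 was not called, and of the calls of the others only that of LAMC3 was lost with thinned KD reads. No paired analysis was possible because WT has 1 library and the groups share fewer than 2 replicate numbers.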

Other observations

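Transcripts that lie opposite integrin and laminin genes, or copy them, did not all move with their neighbours. ITGA9-AS1, antisense to ITGA9, had 168, 224 and 151 normalized counts in KD 1, 2 and 3, against 621 in WT (-1.79, limma adjusted p = 0.00119; -2.35 with equal totals), where ITGA9 itself was called higher on the deposited scale but stood at -0.079 with equal totals. ITGB2-AS1 was lower beside ITGB2, with 22.7, 25.6 and 24.5 normalized counts in KD 1, 2 and 3, against 78.9 in WT (-1.66, adjusted p = 0.0118). LAMB2P1, the pseudogene of LAMB2, was lower as well (-2.60, adjusted p = 7.75e-04). LAMA5-AS1 was called higher (1.40) opposite the falling LAMA5, and ITGB1-DT higher (1.61) beside ITGB1, both calls being lost with equal totals. ITGB5-AS1 was called lower (-3.03) where ITGB5 was not called, but it passed the filter only through WT and so had to differ. LAMC1-AS1 and the pseudogene ITGB1P1 were not called.

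Not all protein-coding genes that overlap them are described here, DLD at LAMB1 and BLOC1S1 at ITGA7 being among those left out. Of those described, PELO, ADRM1 and HASPIN were higher in KD. PELO, inside ITGA1, had 1856, 1584 and 1852 normalized counts in KD 1, 2 and 3, against 523 in WT (1.75, adjusted p = 1.01e-04). ADRM1, a proteasome receptor gene opposite LAMA5, had 5040.5, 5049 and 5666 normalized counts in KD 1, 2 and 3, against 2166 in WT (1.28, adjusted p = 1.56e-04), against a difference of -1.12 for LAMA5. HASPIN, a mitotic kinase gene inside ITGAE, had 942, 938 and 1027 normalized counts in KD 1, 2 and 3, against 333 in WT (1.54, adjusted p = 1.17e-04). ZNF740, opposite ITGB7, was lower, with 2140.2, 2176 and 2281 normalized counts in KD 1, 2 and 3, against 2720.1 in WT (-0.31, adjusted p = 0.0282), a call lost with the TMM, upper-quartile and ratio-median scaling (adjusted p = 0.401, 0.371 and 0.792) and without KD 1 or KD 2. The counting's strand setting is not known, so reads of opposite genes cannot be told apart. These neighbours were chosen after their values were seen.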
